A study of Mus musculus with 8 samples.

Results

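The SLAM family receptors and their SAP adaptors were followed through 3 lymphoid progenitor populations. The set holds 9 genes, taken by symbol from the 34745 genes of the expression table: the receptors Slamf1, Slamf6, Slamf7, Ly9, Cd48, Cd84 and Cd244, and the adaptors Sh2d1a (SAP) and Sh2d1b1 (EAT-2). Each symbol occurred in 1 row, and all 9 genes passed the filter on low counts. Bulk RNA was sequenced from cells sorted from the fetal liver of untreated wild-type B6 mice. The ILC1/3P group (n = 2 libraries) was Flt3-, α4β7+, PD-1- and CD94+, the ILCP group (n = 3) was Flt3-, α4β7+, PD-1+ and CD94-, and the CLP group (n = 3) was Flt3+. All sorted cells were live, negative for lineage markers and CD25, and positive for CD45 and CD127. The labels also give an age in weeks, which fetal tissue leaves unexplained, and a single batch date for all 8 libraries. Neither pooling nor separate animals or litters are recorded. The p-values therefore describe variation among these libraries, which could be technical.

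SLAM receptors sit on the surface of blood cells and mostly bind the same receptor on a neighbouring cell, so that cells of one lineage signal to each other. Their cytoplasmic tails carry tyrosine motifs that recruit SAP, which brings in the kinase Fyn, or EAT-2, which couples to phospholipase C gamma. Without an adaptor the same motifs can bind inhibitory phosphatases, and in mice the family is known for its part in the development of NKT cells and in the activity of NK cells.

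Total counts ran from 6310739 to 8082476 in ILC1/3P libraries, from 6043940 to 6905448 in ILCP libraries and from 4991939 to 7167619 in CLP libraries. Levels are given as CPM, the counts of a gene scaled to a common library size that is adjusted by the TMM method, and are compared between libraries for 1 gene, not between genes. Of the genes of the sort gates, Flt3, Klrd1 and Pdcd1 differed in the direction of the labels. Flt3 was at 0 in ILC1/3P, 0.427 ± 0.739 CPM (SD, n = 3) in ILCP and 459 ± 96.1 CPM in CLP. Klrd1, which encodes CD94, averaged 1410 ± 315 CPM in the ILC1/3P libraries (n = 2), against 44.7 ± 26.2 CPM in those of ILCP and 52.2 ± 12.4 CPM in those of CLP. Pdcd1, which encodes PD-1, had a mean of 13.8 ± 5.16 CPM in ILC1/3P, against 77.7 ± 31.4 CPM in ILCP, and was at 0 in CLP. Itga4, the α4 chain, was lowest in ILC1/3P (169 and 100 CPM), against 417 to 490 CPM in ILCP and 302 to 412 CPM in CLP. Itgb7, the β7 chain, was at 39.1 and 65.9 CPM in ILC1/3P, 28.3 to 113 CPM in ILCP and 0.736 to 8.27 CPM in CLP. Il2ra, which encodes CD25, was at 0.822 and 3.78 CPM in ILC1/3P, 6.26 to 9.26 CPM in ILCP and 0 in CLP. Summed levels of marker lists differed between the populations. The 7 innate lymphoid progenitor genes, mostly Id2, summed to 10400 to 14800 CPM in ILC1/3P and 6260 to 6800 CPM in ILCP. In CLP they summed to 218 to 352 CPM. In ILC1/3P, ILCP and CLP, the stem and multipotent list was at 155 to 339, 142 to 189 and 525 to 589 CPM. The dendritic cell list was at 117 to 152, 111 to 187 and 234 to 278 CPM. Erythroid, macrophage and megakaryocyte lists reached at most 46.8 CPM. The 8 B cell genes summed to 131 to 173 CPM in ILC1/3P, where Pax5 was at 0, to 155 to 191 CPM in the ILCP libraries and to 2480 to 3310 CPM in the CLP libraries, with counts for 6, 8 and 8 of them. The 8 NK and ILC1 genes summed to 2930 to 3710 CPM in ILC1/3P, to 50.1 to 144 CPM in the ILCP libraries and to 9.93 to 14.1 CPM in CLP, where Ncr1 was at 0, with counts for 7, 8 and 4 of them. The 8 T cell genes summed to 2370 to 3700 CPM in ILC1/3P, to 1460 to 2320 CPM in the ILCP libraries and to 6.12 to 25.9 CPM in CLP, where Cd3e was at 0, with counts for 6, 7 and 4 of them. The 8 myeloid genes summed to 712 to 877 CPM in ILC1/3P, where Elane was at 0, to 127 to 181 CPM in the ILCP libraries, where Mpo and Elane were at 0, and to 761 to 960 CPM in CLP, with counts for 6, 5 and 8 of them. In ILC1/3P little of this sum came from Mpo (0.164 and 0 CPM) or Lyz2 (39.1 and 40.7 CPM). In CLP Mpo alone was at 711, 438 and 454 CPM. The 8 mast cell and basophil genes summed to 185 to 237 CPM in ILC1/3P, to 481 to 627 CPM in the ILCP libraries and to 0 to 2.96 CPM in CLP, nearly all of it from Cpa3. Counts were found for 1, 2 and 2 of these, and Mcpt8 and Fcer1a were at 0 in every library. The part of other cell types in the results below was not tested, and in bulk RNA fewer cells of a type and less RNA per cell cannot be told apart.

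Slamf6 (Ly108), a receptor that binds itself on neighbouring cells and recruits SAP, was called, at an adjusted p under 0.05 over all genes tested, in all 3 comparisons. Its level was 0.164 and 0.945 CPM in the ILC1/3P libraries. It was 32.4, 52.8 and 36.3 CPM in the ILCP libraries, and 202, 224 and 235 CPM in the CLP libraries. No library of one population overlapped those of another, and the order was ILC1/3P lowest and CLP highest. Slamf6 fell in ILCP against CLP, with a log2 fold change of -2.44 (SE 0.33, adjusted p = 0.000725 by edgeR's quasi-likelihood test). It also fell in ILC1/3P, by a log2 fold change of -8.73 against CLP (SE 0.60, adjusted p = 3.6e-06) and of -6.29 against ILCP (SE 0.57, adjusted p = 0.000128). The ILC1/3P value rests on 5 reads over both libraries, so its size moved with the library left out: against CLP it was -10.24 without ILC1/3P replicate 2 and -7.84 without ILC1/3P replicate 1, and against ILCP it was -7.79 and -5.40. The pooled count ratio was 0.00222 of the CLP level (95% interval 0.000721 to 0.00519, counting error only). The summed B cell list, high in CLP, moved the same way as Slamf6 between ILC1/3P and CLP. Unlike Slamf6, its sums overlapped between ILC1/3P (131 to 173 CPM) and ILCP (155 to 191 CPM). The stem and multipotent list and the dendritic cell list were also highest in CLP, and likewise overlapped between ILC1/3P and ILCP.

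Slamf7 (CRACC), an activating receptor of NK cells that couples to EAT-2, showed the opposite pattern. Its level was 57.9 and 46.8 CPM in ILC1/3P. In ILCP it was 0.142, 0.138 and 0.704 CPM, and in CLP it was 0, 0 and 0.741 CPM. Only the ILC1/3P libraries stood above 1 CPM, and ILCP and CLP overlapped. Slamf7 rose in ILC1/3P by 7.64 on the log2 scale against CLP (SE 1.25, adjusted p = 0.00116 by edgeR) and by 7.24 against ILCP (SE 1.22, adjusted p = 0.00271). The low groups hold 5 reads in CLP and 7 in ILCP, and the size depended on them: 11.43 against CLP without CLP replicate 3, 6.99 without CLP replicate 1, and 8.36 against ILCP without ILCP replicate 3. The pooled count ratio to CLP was 224, with a counting interval of 95.4 to 693. Between ILCP and CLP the log2 difference was 0.40 (SE 1.21, adjusted p = 0.936), and it turned to -0.72, -0.24 and -0.08 without ILCP replicate 3, CLP replicate 1 and CLP replicate 2. Slamf7 shares 423 exon bases, 9.242% of its exon length, with Gm37787 on the other strand, whose own reads numbered 5 in all, in 1 ILC1/3P library; the use of strand in counting is not given. The summed NK and ILC1 list was also highest in ILC1/3P, as were the T cell and innate lymphoid progenitor lists.

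The promoters of these 2 genes are printed because the genes lay at opposite ends of the populations. Each runs from 250 bases before to 50 bases after the RefSeq start site in build GRCm38.p6, in the gene's own direction, Slamf6 at chr1:171917212-171917511 on the plus strand and Slamf7 at chr1:171648950-171649249 on the minus strand. Capitals mark a match to a searched motif.
Slamf6: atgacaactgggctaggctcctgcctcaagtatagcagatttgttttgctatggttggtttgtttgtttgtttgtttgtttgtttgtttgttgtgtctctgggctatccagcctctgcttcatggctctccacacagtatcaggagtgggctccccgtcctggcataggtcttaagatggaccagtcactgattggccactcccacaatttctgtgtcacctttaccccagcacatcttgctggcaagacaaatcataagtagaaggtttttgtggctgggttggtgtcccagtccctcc
Slamf7: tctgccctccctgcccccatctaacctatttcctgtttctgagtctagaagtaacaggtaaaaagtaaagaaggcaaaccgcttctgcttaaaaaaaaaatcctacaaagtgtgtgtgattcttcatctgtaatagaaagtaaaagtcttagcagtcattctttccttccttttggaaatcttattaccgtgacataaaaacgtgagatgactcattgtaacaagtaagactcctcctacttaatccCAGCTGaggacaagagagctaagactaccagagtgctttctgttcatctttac
Both strands were searched for the Runx motif TGTGGT and for the T-box motif AGGTGT. The E-box motifs searched were CAGCTG, which several basic helix-loop-helix factors bind, and the related form CACCTG. The GATA motif was searched as AGATAA and, in its other common spelling, as TGATAA. The Slamf6 window, with 48.3% G and C, held none of them. The Slamf7 window, with 39.0% G and C, held 1, a CAGCTG from base -3 to base 3 around its RefSeq start site. This window lies inside the Slamf7 locus of the expression table, whose upstream end is at position 171653035. Sequence at that end was not searched. CAGCTG occurs in 16.3% of 32851 mouse promoters of the same length.

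**Figure D1:**
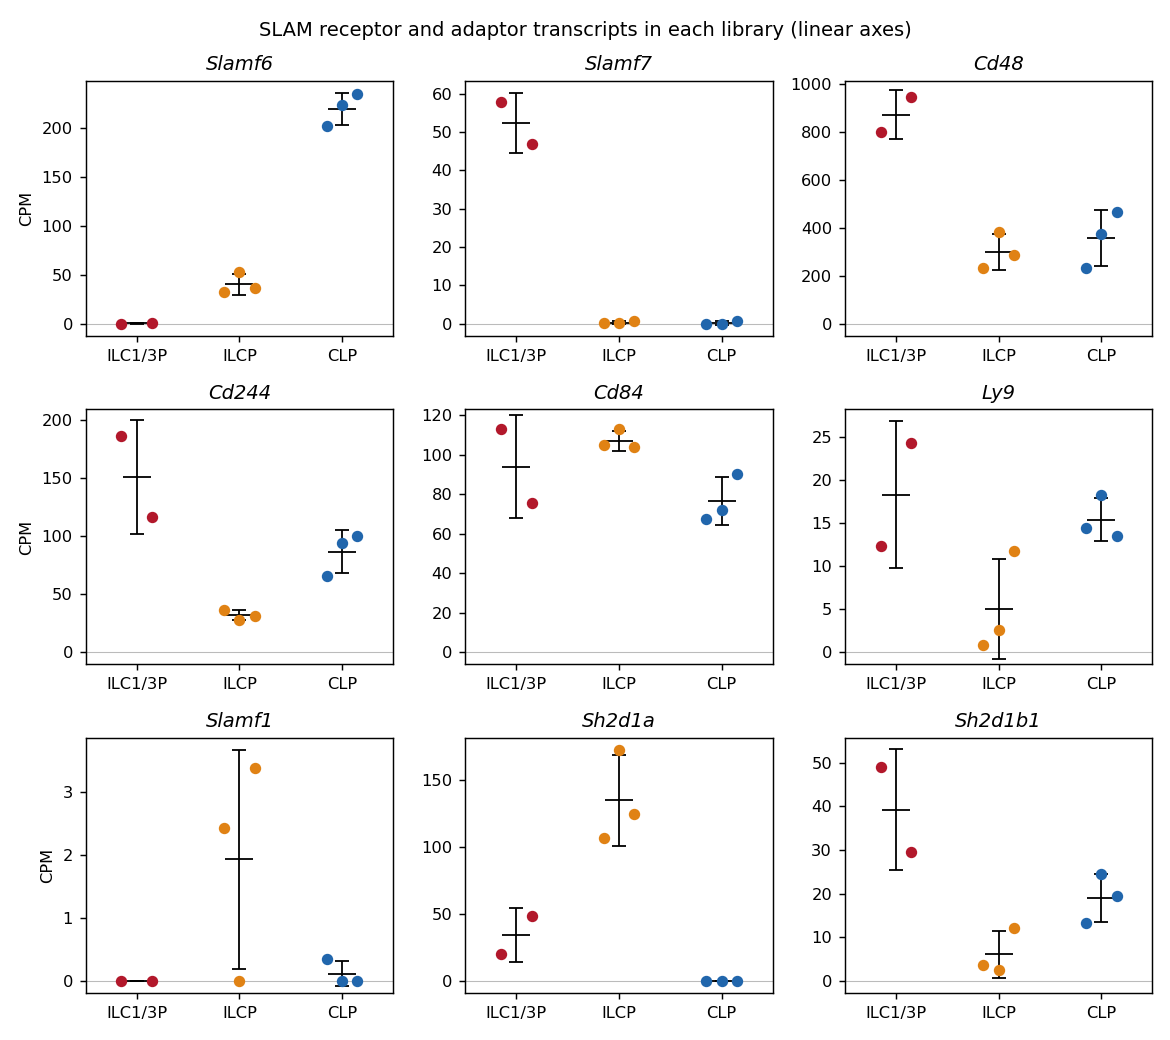
Level of each of the 9 genes in every library, in CPM on linear axes, with ILC1/3P, ILCP and CLP from left to right, points for libraries and bars for the mean and SD. Slamf6 lay at 0.164 and 0.945 CPM in ILC1/3P and at 202 to 235 CPM in CLP, while Slamf7 lay at 46.8 and 57.9 CPM in ILC1/3P and under 1 CPM elsewhere.

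Cd48 and Cd244 encode a ligand and receptor pair: CD48 is a GPI-anchored surface protein, and Cd244 (2B4) binds it. Cd48 was measured at 799 and 945 CPM in ILC1/3P. It was at 234, 383 and 285 CPM in ILCP, and at 233, 375 and 466 CPM in CLP. Both ILC1/3P libraries exceeded every other library, and ILCP and CLP overlapped. Cd48 rose in ILC1/3P by 1.54 on the log2 scale against ILCP (SE 0.31, adjusted p = 0.0069 by edgeR) and by 1.28 against CLP (SE 0.31, adjusted p = 0.0114). The call against CLP was lost when libraries were scaled by size alone (0.62, adjusted p = 0.107) and without ILC1/3P replicate 2 (1.16, adjusted p = 0.062). Scaling by size alone moved the median of all genes to -0.93, against -0.25 under TMM. ILCP and CLP differed by -0.25 (SE 0.28, adjusted p = 0.745), which is less than their spread.

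Cd244 was measured at 186 and 116 CPM in ILC1/3P. It was at 36.3, 27.6 and 31.3 CPM in ILCP, and at 65.9, 93.6 and 100 CPM in CLP. By CPM the 3 populations did not overlap, with ILCP lowest and ILC1/3P highest. The separation of ILC1/3P from CLP depended on the scaling. By the authors' FPKM, a level per gene length without TMM, ILC1/3P (26.4 and 14.7) overlapped CLP (15.3, 19.3 and 20.5). Cd244 fell in ILCP against CLP, with a log2 fold change of -1.45 (SE 0.30, adjusted p = 0.0118 by edgeR), and this call was lost without ILCP replicate 3, CLP replicate 2 or CLP replicate 3 (adjusted p = 0.0557, 0.0525 and 0.0588). It rose in ILC1/3P against ILCP by 2.25 (SE 0.33, adjusted p = 0.00135). Against CLP the ILC1/3P difference of 0.80 (SE 0.32) did not pass, at an adjusted p of 0.0956, while DESeq2 gave 0.85 with an adjusted p of 0.0462, and over all alternatives the adjusted p ran from 0.0462 to 0.759. The summed myeloid list was likewise lowest in ILCP, at 127 to 181 CPM, though not higher in ILC1/3P than in CLP. Its ILC1/3P sum came mostly from genes of the list other than Mpo, Elane and Lyz2.

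Cd84 (SLAMF5), a receptor that binds itself on neighbouring cells, was called in no comparison. It was at 113 and 75.6 CPM in ILC1/3P, at 105, 113 and 104 CPM in ILCP, and at 67.7, 71.9 and 90.4 CPM in CLP. The ILCP libraries lay above the CLP libraries and the ILC1/3P libraries overlapped both. The log2 differences were 0.48 for ILCP against CLP (SE 0.26, adjusted p = 0.356 by edgeR), 0.30 for ILC1/3P against CLP (SE 0.29, adjusted p = 0.502) and -0.19 for ILC1/3P against ILCP (SE 0.29, adjusted p = 0.728). The sign of both ILC1/3P differences turned under an alternative. Ly9 (SLAMF3) was at 12.3 and 24.3 CPM in ILC1/3P, 0.853, 2.63 and 11.7 CPM in ILCP, and 14.4, 18.2 and 13.5 CPM in CLP. By CPM the ILCP libraries were the lowest, but ILCP replicate 3 came close to the lower ILC1/3P library. By the authors' FPKM, ILCP replicate 3 (2.48) lay above that library (1.78). Ly9 differed by -1.60 for ILCP against CLP (SE 0.86, adjusted p = 0.346 by edgeR), by 0.25 for ILC1/3P against CLP (SE 0.92, adjusted p = 0.877) and by 1.85 for ILC1/3P against ILCP (SE 0.93, adjusted p = 0.207). Without ILCP replicate 3 the first was -3.13 with an adjusted p of 0.0762 and the last was 3.38 with an adjusted p of 0.0415.

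Slamf1 (CD150), the receptor that gave the family its name and a marker of haematopoietic stem cells in mice, was close to the limit of detection. It had 17, 0 and 24 reads in the ILCP libraries, 3 reads in 1 CLP library and none in ILC1/3P, where 3 reads over both libraries would be 0.291 CPM. The pooled ratio of ILCP to CLP was 13.4 (95% interval 4.29 to 67.8, counting error only), and the populations overlapped because ILCP replicate 2 had no read. ILC1/3P was at least 6.59-fold lower than ILCP against that floor. Neither difference passed (adjusted p = 0.452 and 0.232 by edgeR), and the depth does not allow a fold for ILC1/3P against CLP.

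The adaptors moved in different ways. Sh2d1a, which encodes SAP, was at 20.1 and 48.7 CPM in ILC1/3P. It was at 107, 173 and 125 CPM in ILCP, and 0 reads were counted in the CLP libraries, where 3 reads over the group would be 0.143 CPM. All 5 innate lymphoid progenitor libraries thus stood above all 3 CLP libraries, and ILCP above ILC1/3P. Sh2d1a was at least 946-fold higher in ILCP than in CLP (adjusted p = 1.62e-05 by edgeR) and at least 223-fold higher in ILC1/3P than in CLP (adjusted p = 3.95e-05). It fell in ILC1/3P against ILCP, with a log2 fold change of -1.98 (SE 0.48, adjusted p = 0.0209). That last call did not hold when ILC1/3P replicate 1 was left out (-1.47, adjusted p = 0.0769), nor without ILCP replicate 2 (-1.70, 0.0759) or ILCP replicate 3 (-2.03, 0.0613), and the difference was -2.74 without ILC1/3P replicate 2. Sh2d1a shares 1465 exon bases, 26.612% of its exon length, with Tenm1 on the other strand, and Tenm1 had 0 counts in every library. The T cell list was also higher in ILC1/3P and ILCP than in CLP, but higher in ILC1/3P than in ILCP, unlike Sh2d1a. Cd3g made up most of it, at 2250 and 3460 CPM in ILC1/3P and 1250 to 2100 CPM in ILCP, while Cd3e was at 0 and 2.13 CPM in ILC1/3P and 3.7 to 8.45 CPM in ILCP. The innate lymphoid progenitor list was likewise higher in both than in CLP, and higher in ILC1/3P than in ILCP. The mast cell and basophil list followed the order of Sh2d1a, but nearly all of it came from Cpa3. Mcpt8 and Fcer1a were at 0 in every library.

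Sh2d1b1, which encodes EAT-2, was at 49 and 29.5 CPM in ILC1/3P, at 3.56, 2.49 and 12.2 CPM in ILCP, and at 13.3, 24.5 and 19.4 CPM in CLP. By CPM the 3 populations did not overlap, with ILCP lowest and ILC1/3P highest. By the authors' FPKM, ILC1/3P (14.5 and 7.79) overlapped CLP (6.42, 10.5 and 8.29). Sh2d1b1 rose in ILC1/3P against ILCP by 2.69 on the log2 scale (SE 0.71, adjusted p = 0.0237 by edgeR). This call was lost when libraries were scaled by size alone (2.07, adjusted p = 0.0706) and without ILC1/3P replicate 1, ILCP replicate 1 or ILCP replicate 2 (adjusted p = 0.103, 0.084 and 0.0516), and the difference was 3.69 without ILCP replicate 3. ILCP against CLP gave -1.64 (SE 0.65, adjusted p = 0.175), which became -2.65 with an adjusted p of 0.0417 without ILCP replicate 3. ILC1/3P against CLP gave 1.05 (SE 0.69, adjusted p = 0.297). The summed myeloid list (712 to 877 CPM in ILC1/3P and 127 to 181 CPM in ILCP) and the NK and ILC1 list (2930 to 3710 CPM in ILC1/3P and 50.1 to 144 CPM in ILCP) moved the same way as Sh2d1b1 between ILC1/3P and ILCP. The myeloid sum in ILC1/3P came mostly from genes other than Mpo, Elane and Lyz2. Between ILCP and CLP the NK and ILC1 list went the other way from Sh2d1b1, at 9.93 to 14.1 CPM in CLP. Its promoter is printed because the gene was called between the innate lymphoid populations. This reason does not single it out, since it also holds for Cd48 and Cd244, whose promoters are not printed. It lies at chr1:170277068-170277367 on the plus strand of GRCm38.p6.
Sh2d1b1: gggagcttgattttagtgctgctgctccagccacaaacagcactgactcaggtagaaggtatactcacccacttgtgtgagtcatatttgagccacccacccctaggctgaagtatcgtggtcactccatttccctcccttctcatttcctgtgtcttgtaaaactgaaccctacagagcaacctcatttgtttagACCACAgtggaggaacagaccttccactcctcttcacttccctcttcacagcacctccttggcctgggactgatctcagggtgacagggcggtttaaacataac
The capitals are a Runx motif read on the other strand, at bases -54 to -49. The Runx letters occur in 16.8% of the 32851 promoters. Promoters were found for 7 of the 9 genes, and Runx matches lay in 3 of them (Sh2d1b1, Cd48, Cd84), T-box matches in 2 (Slamf1, Cd84) and the first E-box form in 2 (Slamf7, Slamf1). The second E-box form and the GATA motif each lay in 1, that of Slamf1, where this E-box overlaps the T-box match. Of all promoters, 13.7% hold the T-box letters, 20.2% the second E-box form and 18.6% the GATA letters.

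Levels of different genes were compared per length, with the authors' FPKM. By FPKM, the transcripts of SAP and EAT-2 exchanged places as the more abundant adaptor, a difference between genes that was not tested. In the ILC1/3P libraries Sh2d1a had 1.99 and 4.3 FPKM and Sh2d1b1 had 14.5 and 7.79 FPKM, so that Sh2d1a made up 12.1% and 35.6% of their sum. In the ILCP libraries Sh2d1a had 16.4, 23.9 and 18.2 FPKM and Sh2d1b1 had 1.63, 1.02 and 5.32 FPKM, which put Sh2d1a at 91.0%, 95.9% and 77.4%. In the CLP libraries Sh2d1a was at 0 and Sh2d1b1 at 6.42, 10.5 and 8.29 FPKM. By FPKM, Sh2d1b1 was thus the more abundant adaptor transcript in ILC1/3P and CLP and Sh2d1a in ILCP. The use of strand is not given, so reads in Sh2d1a exons shared with Tenm1 may not have been counted. That would lower the share of Sh2d1a, and it was not tested. With exon lengths of GENCODE M21 in place of the lengths implied by the FPKM values, an alternative chosen after seeing the data, the share of Sh2d1a was 15.9% and 43.2% in ILC1/3P and 93.3%, 97.0% and 82.5% in ILCP.

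**Figure D2:**
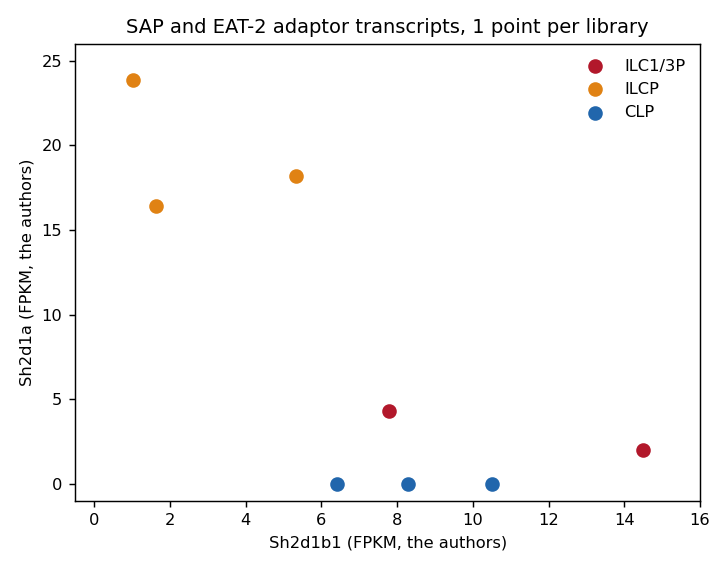
Authors' FPKM of Sh2d1a (SAP, vertical axis) against that of Sh2d1b1 (EAT-2, horizontal axis), with 1 point for each ILC1/3P, ILCP and CLP library, coloured by population. Sh2d1a lay at 16.4 to 23.9 FPKM in ILCP, where Sh2d1b1 lay at 1.02 to 5.32 FPKM, and Sh2d1a was at 0 in CLP.

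Among the 7 receptors Cd48 made up most of the summed FPKM in every library, with 87.6 to 92.1% in ILC1/3P, 84.4 to 89.5% in ILCP and 75.9 to 83.0% in CLP. With GENCODE M21 exon lengths its share was 90.3 to 93.7% in ILC1/3P, 87.6 to 91.6% in ILCP and 80.5 to 86.6% in CLP. Behind Cd48, the leading receptor differed. In ILC1/3P it was Cd244, with 3.86 to 6.94%, followed by Cd84 with 1.75 to 2.93% and Slamf7 with 1.46 to 2.04%. In ILCP it was Cd84, with 6.27 to 9.0%, followed by Cd244 with 2.2 to 4.47%. In CLP Slamf6 held 6.23 to 9.83% and Cd244 6.07 to 7.32%. By mean FPKM, Slamf6 ranked 8 of the 9 genes in ILC1/3P, 5 in ILCP and 2 in CLP. Slamf7 ranked 5 in ILC1/3P, 9 in ILCP and 7 in CLP. The Slamf7 ranks in ILCP and CLP rest on 7 and 5 reads, with mean FPKM of 0.0644 and 0.0477. They do not place Slamf7 lower in ILCP than in CLP.

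Counted together, 3 of the 9 genes were called between ILCP and CLP at an adjusted p under 0.05 (33.3%), against 6.79% of the 13436 genes tested. Of these, 1 was higher (Sh2d1a; 3.91% of all genes were called higher) and 2 were lower (Slamf6 and Cd244; 2.87% of all genes were called lower). The median log2 difference of the 9 genes was -0.25, against 0.01 over all genes. In ILC1/3P against CLP 4 were called (44.4%), against 23.5% of all genes. Of these, 3 were higher (Slamf7, Cd48 and Sh2d1a), against 11.8% of all genes, and 1 was lower (Slamf6), against 11.7% of all genes. The median was 0.80, against -0.25 over all genes. In ILC1/3P against ILCP 6 were called (66.7%), against 16.3% of all genes. Of these, 4 were higher (Slamf7, Cd48, Cd244 and Sh2d1b1), against 8.06% of all genes, and 2 were lower (Slamf6 and Sh2d1a), against 8.25% of all genes. The median was 1.54, against -0.23 over all genes. By CPM, the groups did not overlap for 6, 6 and 7 of the genes in these comparisons, in the order given, against 28.2%, 52.4% and 44.8% of all genes tested. By FPKM, Cd244 and Sh2d1b1 overlapped between ILC1/3P and CLP. Between ILC1/3P and ILCP, Ly9 overlapped by FPKM and Cd84 did not. The share of all genes was not counted by FPKM. The comparisons share libraries: CLP serves both comparisons against it, and ILC1/3P and ILCP each enter 2.

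**Figure D3:**
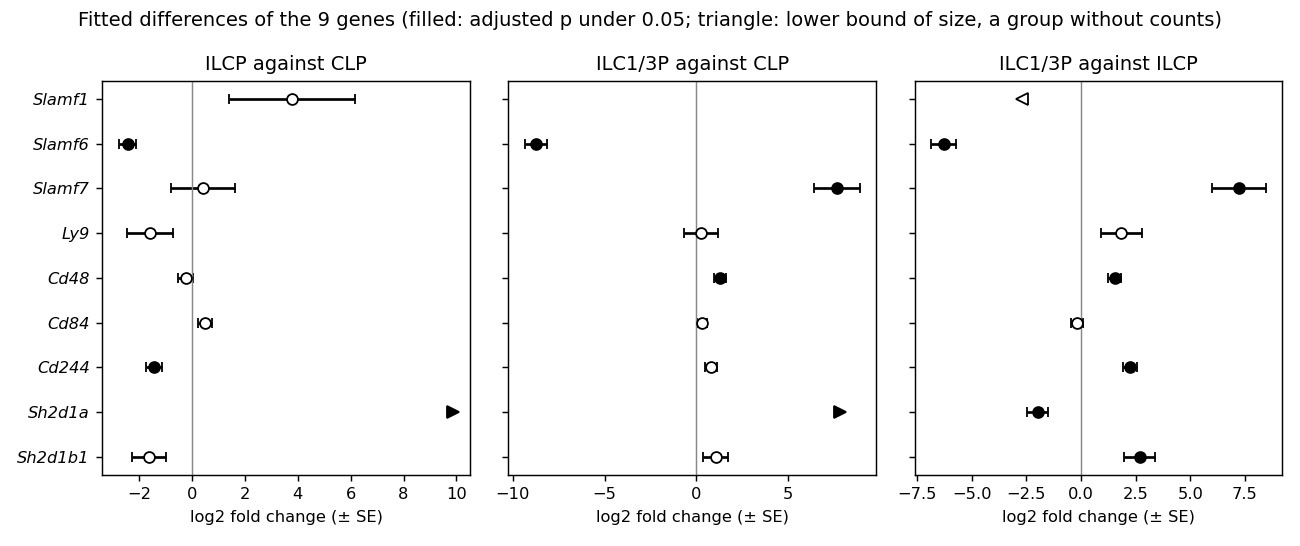
Log2 fold change of the 9 genes with its SE in the 3 comparisons, with filled marks for an adjusted p under 0.05 and triangles for bounds where a group had no counts. Slamf6 lies at -8.73 and Slamf7 at 7.64 for ILC1/3P against CLP, and the bound of Sh2d1a for ILCP against CLP is 9.89.

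The 20 genes listed as partners of the pathway, which act with or beside the receptors, were examined next, and 17 passed the filter. The other three, Slamf8, Slamf9 and Sh2d1b2, had 3 reads in ILCP replicate 2, 1 read in CLP replicate 3 and 1 read in CLP replicate 2. Cd2, an adhesion receptor that also binds CD48, was at 190 and 350 CPM in ILC1/3P, at 31.4, 54.6 and 41.1 CPM in ILCP and at 5.33, 2.02 and 8.15 CPM in CLP. The 3 populations did not overlap. Cd2 rose by 3.02 on the log2 scale in ILCP against CLP (SE 0.47, adjusted p = 0.00186 by edgeR), by 5.69 in ILC1/3P against CLP (SE 0.53, adjusted p = 3.69e-05) and by 2.67 in ILC1/3P against ILCP (SE 0.47, adjusted p = 0.00332). These 3 calls held under every alternative run.

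Between ILCP and CLP 2 of the 17 partners were higher and 2 lower (23.5%), against 6.79% of all genes, with a median of -0.15, against 0.01 over all genes. Besides Cd2, Nfkb1, a subunit of NF-κB, had a mean of 112 ± 32.8 CPM in the ILCP libraries and of 43.1 ± 14.4 CPM in the CLP libraries (SD, n = 3 each), a difference of 1.38 (SE 0.34, adjusted p = 0.0322). Plcg2, a phospholipase C gamma, had a mean of 35.1 ± 10.2 CPM in ILCP, against 134 ± 27 CPM in CLP, a difference of -1.93 (SE 0.31, adjusted p = 0.00231). Inpp5d, which encodes the inositol phosphatase SHIP-1, had a mean of 31.4 ± 17.2 CPM in ILCP, against 118 ± 26.7 CPM in CLP, a difference of -1.91 (SE 0.46, adjusted p = 0.0265). The Nfkb1 call was lost without ILCP replicate 1 or 3 or CLP replicate 1 or 3, and the Inpp5d call without ILCP replicate 3 or any one CLP replicate.

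In ILC1/3P against CLP 1 partner was higher and 3 were lower (23.5%), the same share as over all genes (23.5%), with a median of -0.87, against -0.25 over all genes. Ptpn6, which encodes the tyrosine phosphatase SHP-1, had a mean of 46.2 ± 27.5 CPM in ILC1/3P, against 176 ± 40.1 CPM in CLP, a difference of -1.92 (SE 0.40, adjusted p = 0.00498). Lyn, a kinase of the Src family, had a mean of 33.6 ± 10 CPM in ILC1/3P, against 87.8 ± 17.8 CPM in CLP, a difference of -1.39 (SE 0.36, adjusted p = 0.0157). Inpp5d had a mean of 29.5 ± 10.8 CPM in ILC1/3P, against 118 ± 26.7 CPM in CLP, a difference of -2.0 (SE 0.54, adjusted p = 0.0186). The Lyn and Inpp5d calls were lost without ILC1/3P replicate 1 or CLP replicate 1.

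In ILC1/3P against ILCP 2 partners were higher and 1 was lower (17.6%), near the 16.3% over all genes, with a median of -0.54, against -0.23 over all genes. Plcg2 had a mean of 77.5 ± 3.45 CPM in ILC1/3P, against 35.1 ± 10.2 CPM in ILCP, a difference of 1.14 (SE 0.33, adjusted p = 0.0371), and the call was lost without any 1 library other than CLP replicate 1, with scaling by library size alone (0.51, adjusted p = 0.303) and in the fit of these 2 groups alone (adjusted p = 0.0865). Lck, a kinase of the Src family that acts in T cell signalling, had a mean of 71.1 ± 45.4 CPM in ILC1/3P, against 228 ± 86.4 CPM in ILCP, a difference of -1.68 (SE 0.49, adjusted p = 0.0371), and the call was lost without ILC1/3P replicate 2, ILCP replicate 1 or 3, or CLP replicate 3, and in the fit of these 2 groups alone (adjusted p = 0.0559). Fyn, the kinase that SAP recruits, was named outside the rule and after its values were seen. It passed in no comparison of the main fit and had means of 16.4 ± 3.51 CPM in ILC1/3P, of 42.1 ± 14.9 CPM in the ILCP libraries and of 30.1 ± 6.76 CPM in CLP. Against ILCP the ILC1/3P difference was -1.35 (SE 0.49, adjusted p = 0.0849 by edgeR), without overlap. It passed with DESeq2 (-1.29, adjusted p = 0.0399) and with edgeR by library size alone (-1.98, adjusted p = 0.0201). By library size alone Fyn also passed against CLP (-1.52, adjusted p = 0.0414).

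The 7 receptor genes lie together on chromosome 1, in 394.0 kb, at positions 171559193 to 171953170 of the expression table, whose loci equal those of GENCODE M21 for all 9 genes, in the mm10 build that the submitters' processing notes name. In order they are Cd244 (ENSMUSG00000004709, chr1:171559193-171609746, plus strand), Ly9 (ENSMUSG00000004707, chr1:171588624-171607410, minus strand), Slamf7 (ENSMUSG00000038179, chr1:171632403-171653035, minus strand), Cd48 (ENSMUSG00000015355, chr1:171682009-171705258, plus strand), Slamf1 (ENSMUSG00000015316, chr1:171767127-171801184, plus strand), Cd84 (ENSMUSG00000038147, chr1:171839697-171890718, plus strand) and Slamf6 (ENSMUSG00000015314, chr1:171917515-171953170, plus strand). Ly9 lies within the span of Cd244 and shares no exon base with it. Sh2d1b1 (ENSMUSG00000102418, chr1:170277320-170286769, plus strand) lies 1.27 Mb before the cluster, and Sh2d1a is on the X chromosome (ENSMUSG00000005696, chrX:42502453-42529330, plus strand). Slamf7 and Cd48, which are adjacent in this order, were both called higher in ILC1/3P against ILCP and against CLP. Slamf6, called lower in ILC1/3P in both, stands next to Cd84, which was called in no comparison.

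The flanking 100 kb on each side and the cluster hold 20 genes, 13 of them protein-coding. Of the protein-coding genes other than receptors that passed the filter, Vangl2, a planar cell polarity gene, was at 0 and 1.42 CPM in ILC1/3P, at 8.53, 5.39 and 2.96 CPM in ILCP, and at 18.9, 8.83 and 26.2 CPM in CLP. It fell in ILC1/3P against CLP, with a log2 fold change of -4.72 (SE 1.38, adjusted p = 0.0281 by edgeR). F11r and Alyref2 passed in none. Gm37065, an antisense RNA gene across the Slamf6 start that shares no exon base with it and was chosen after its values were seen, was at 0 in all ILC1/3P and ILCP libraries and at 11.8, 16.6 and 13 CPM in CLP. It was at least 95.6-fold lower in ILCP than in CLP (adjusted p = 0.00799 by edgeR) and at least 46.1-fold lower in ILC1/3P than in CLP (adjusted p = 0.00994). Because the use of strand is not given, its reads and unspliced Slamf6 reads cannot be told apart where the 2 overlap. Tma7-ps, a processed pseudogene in the window and likewise chosen after its values were seen, was at 400 and 459 CPM in ILC1/3P, at 81.2, 141 and 93.5 CPM in ILCP and at 40.5, 44.3 and 73.1 CPM in CLP. Reads that it shares with its parent gene make these counts uncertain.

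**Figure D4:**
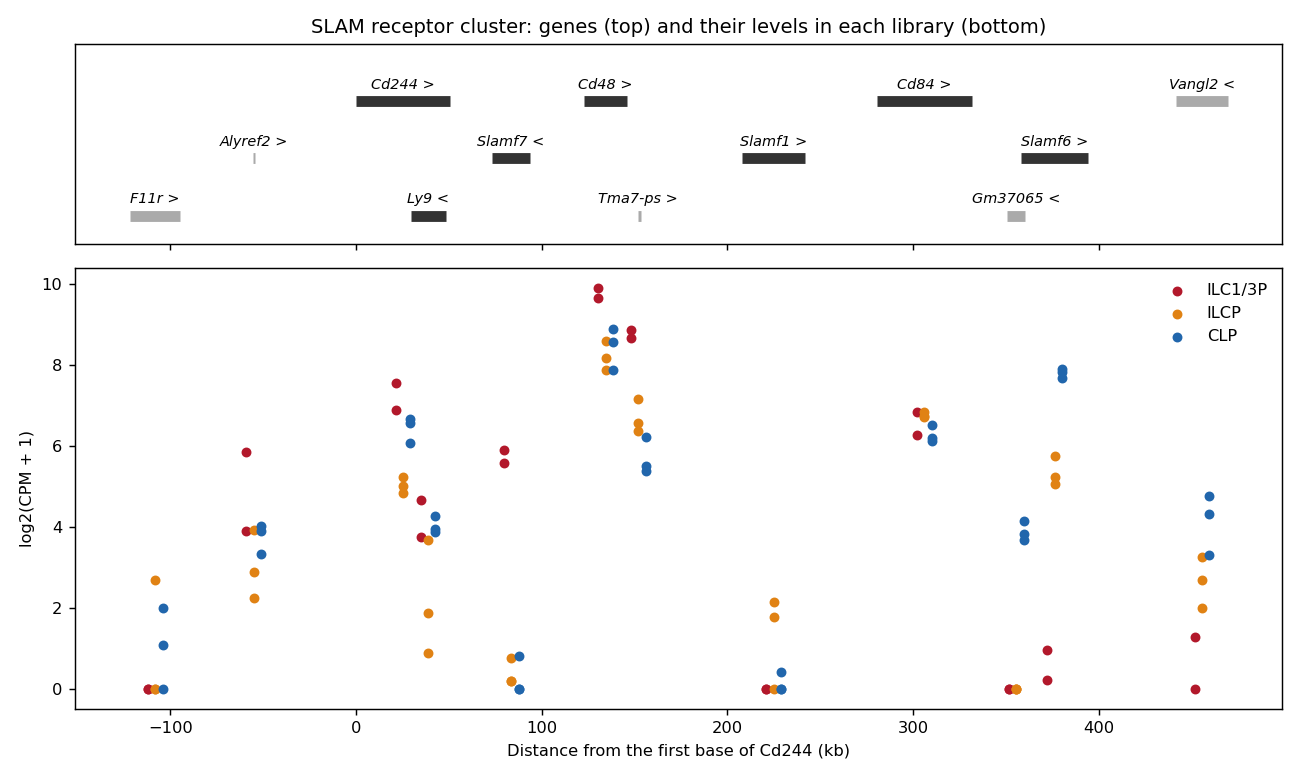
Genes of the SLAM receptor cluster by distance from the cluster start in kb, and below them, by position, the log2(CPM + 1) of these genes with a point for each ILC1/3P, ILCP and CLP library. Gm37065 lies at 0 CPM in ILC1/3P and ILCP and at 11.8 to 16.6 CPM in CLP, beside Slamf6.

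For each called gene the 3 genes with the most similar profile over the 8 libraries were listed among 11460 candidates, by the root mean square difference of centred log2 CPM, as a description with no test. For Slamf6 they were Ceacam1 (0.572), H2-Ob (0.625) and Acss1 (0.671). For Slamf7 they were Cited1 (0.725), Klri2 (0.904) and Gzmc (0.911). For Cd48 they were mt-Atp6 (0.103), Dynlt1a (0.113) and Rpl30 (0.117), and for Cd244 Trio (0.248), Prim1 (0.321) and Chchd4 (0.328). For Sh2d1a they were Rora (0.193), Nipal1 (0.445) and Il23r (0.472), and for Sh2d1b1 Ctbp2 (0.243), Hist1h4m (0.455) and Tbc1d22b (0.536). Rora, a nuclear receptor of innate lymphoid cells, averaged 7.23 log2 CPM in ILC1/3P, 9.18 in ILCP and 0.49 in CLP.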

How the data were processed

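Sample titles gave the group and replicate number of the 8 libraries. The sorted cells were lysed and their cDNA amplified by PCR (SMARTer Ultra Low kit), per the labels' protocols. The authors deposited 1 table of raw counts per gene, with FPKM beside them, and 0 columns were left unmapped. Per the submitters' processing notes, mm10 was the build. The aligner, counter, annotation and strand setting were not given in the sources used here. Because the labels describe no molecular identifiers, intervals and floors hold for counting error alone.

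The count test was edgeR 4.0.16 (R 4.3.3) on all genes. After filterByExpr 13436 remained. TMM scaling and a robust quasi-likelihood fit of 1 mean per group used all 8 libraries. Adjusted p-values are two-sided Benjamini-Hochberg values, and genes under 0.05 were called. The biological coefficient of variation was 0.679. SE values were derived from the F statistic. CPM means are given ± SD. Against a group without counts, the fold is a bound, with 3 counts over that whole group as floor. With few counts, pooled ratios carry an exact 95% interval. The lengths behind FPKM are not described, and those implied by the values (1805 bases for Cd48, 12109 for Slamf6) exceed the exon length in GENCODE M21 (1189 and 10832). Exon overlaps were taken from GENCODE M21 and promoters from RefSeq (GRCm38.p6). Code was tested on simulated data. Alternatives were DESeq2 1.42.0, other scaling, no filter, fits of 2 groups, a replicate block and leaving out each library.

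Members and lists were chosen with earlier results of these data known. By rule, the genes named are all members, partners called in any comparison, protein-coding neighbours that passed the filter, and the 3 most similar genes of each called member. Fyn, Gm37065 and Tma7-ps were named outside this rule, after their values were seen. Uncalled partners are given as counts. Receptor tail motifs were not analysed here. Replicate numbers are not said to mark shared litters or days, so the main fit has no block.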

Additional observations from a re-analysis of the deposited data

How the results depend on the processing

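Groups held 2 or 3 libraries. Where leaving out a library left 1 in ILC1/3P, that library was assumed to vary like those of the other groups. Of the member calls, Slamf6 and Slamf7 in ILC1/3P, Slamf6 in ILCP against CLP, Sh2d1a against CLP, and Cd48 and Cd244 in ILC1/3P against ILCP held under every alternative run. Calls for all genes between ILCP and CLP numbered 912, 1735 with DESeq2, and 587 to 1114 when 1 library was left out. Between ILC1/3P and CLP they numbered 3163 and 2285 to 3197, and between ILC1/3P and ILCP 2192 and 1333 to 2161. Scaling by library size alone called 946 higher and 2807 lower for ILC1/3P against CLP (TMM 1592 and 1571), and 474 higher and 2141 lower for ILC1/3P against ILCP (TMM 1083 and 1109), with medians of all genes at -0.93 and -0.86 (TMM -0.25 and -0.23). Member calls numbered 2 to 3, 3 to 4 and 4 to 6 without 1 library, in the order of the report. Partner calls between ILCP and CLP were 4, with 5 under DESeq2, 5 with no filter and 2 to 4 without 1 ILCP or CLP library. Between ILC1/3P and CLP they were 4, with 9 by library size alone, 7 with no filter, 7 with DESeq2 and 2 to 6 without 1 library. Between ILC1/3P and ILCP they were 3, with 7 by library size alone, 5 with DESeq2, 1 on the 2 groups alone and 1 to 3 without 1 library. The cause of these changes was not tested.

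Signs turned in differences that had not passed. Slamf7 in ILCP against CLP was -0.72 without ILCP replicate 3, -0.24 without CLP replicate 1 and -0.08 without CLP replicate 2, and its range over single libraries left out was -0.72 to 4.19. In ILC1/3P against CLP, scaling by library size alone gave -0.44 for Ly9 and -0.36 for Cd84, with -0.32 for Ly9 without ILC1/3P replicate 2 and -0.02 for Cd84 without ILC1/3P replicate 1. The ranges without 1 library were -0.32 to 0.66 for Ly9 and -0.02 to 0.55 for Cd84. Cd84 in ILC1/3P against ILCP was 0.08 without ILC1/3P replicate 2, in a range of -0.5 to 0.08. By FPKM, 2 of the 3 pairwise orders of the group means matched those by CPM for Ly9 and for Cd84.

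The correlation of deviations between the 7 same-numbered pairs ran from -0.033 to 0.087, against -0.093 to 0.033 for differently numbered pairs. The highest values were those of ILCP and CLP replicate 1 (0.087) and of ILCP and CLP replicate 2 (0.057). Deviations of the 2 ILC1/3P libraries mirror each other by construction. Whether the numbers pair the libraries is therefore not settled by these values. With the replicate block, 741, 2624 and 1753 genes, 3, 4 and 6 members and 4, 4 and 3 partners were called, and no member call changed. The Nfkb1 call in ILCP against CLP (adjusted p = 0.075), the Inpp5d call in ILC1/3P against CLP (0.0572) and the Plcg2 call in ILC1/3P against ILCP (0.0668) were lost in that edgeR fit, and Lck (0.0244), Plcg1 (0.0456) and Ptpn6 (0.0406) were gained, 1 in each comparison in the same order. The Slamf7 difference was 9.74 against CLP and 8.87 against ILCP with the block, and that of Sh2d1b1 against ILCP was 3.31.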
